A study of Homo sapiens with 10 samples.

Results

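The classical histone deacetylases are zinc-dependent enzymes, and the mRNA of HDAC1 to HDAC10 was followed here in human cells given sulforaphane (SFN). The members were the rows of the count table whose gene symbol was HDAC1, HDAC2, HDAC3, HDAC4, HDAC5, HDAC6, HDAC7, HDAC8, HDAC9 or HDAC10, which gave 10 genes of 28380. All 10 were among the 13378 genes with enough counts to be tested. The cells were RPE-1, a telomerase-immortalized line from human retinal pigment epithelium, and all samples were of this line and of the same time. They were treated for 4 h with DMSO, the solvent, or with 25 µM SFN, an isothiocyanate from cruciferous vegetables, with 5 libraries of each from 50000 cells a replicate. RNA was sequenced with Lexogen QuantSeq, which reads near the 3′ end of each mRNA. The question was whether 4 h of SFN, which has been described elsewhere as an inhibitor of histone deacetylases, went with a change in the mRNA of these enzymes. The counts say nothing of enzyme activity, protein or acetylation.

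Histone deacetylases take acetyl groups off lysines of histones and other proteins, and so oppose the lysine acetyltransferases. Class I (HDAC1, HDAC2, HDAC3 and HDAC8) is mostly nuclear. HDAC1 and HDAC2 work inside the SIN3, NuRD, CoREST and MiDAC complexes and HDAC3 inside NCoR/SMRT. Class IIa (HDAC4, HDAC5, HDAC7 and HDAC9) has little catalytic activity of its own, binds MEF2 transcription factors, and leaves the nucleus bound to 14-3-3 proteins once it is phosphorylated by kinases such as the SIKs and protein kinase D. Class IIb comprises HDAC6, a cytoplasmic tubulin deacetylase, and HDAC10, a polyamine deacetylase.

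The libraries held 15689294 to 20666692 counts in DMSO (median 16699666) and 12375860 to 17308706 in SFN (median 14408929). Levels are given as CPM, a gene's count relative to its library's total, with TMM scaling between libraries. A gene was called changed at a Benjamini-Hochberg adjusted p under 0.05 in edgeR's quasi-likelihood test. DMSO replicate 1 stood apart from its group. Its mean Spearman correlation with the other DMSO libraries was 0.935 across genes, where that of the others was 0.979 to 0.982. It was the highest or lowest DMSO library for 85.2% of all genes tested, and results that rest on it are given with and without it. No label says that the replicates were separate cultures, so p-values measure the spread between these libraries. The line was checked against markers. The epithelial keratins KRT8 (4835 to 8522 counts) and KRT18 (2396 to 4310 counts) were abundant, and the pigment epithelium factors MITF (217 to 1210 counts) and OTX2 (107 to 299 counts) were detected, as were BEST1 (97 to 1244 counts) and PMEL (7 to 29 counts). The visual cycle genes RPE65 (0 to 3 counts) and RLBP1 (0 to 4 counts) and the epithelial gene EPCAM (0 to 2 counts) were nearly absent. TYR, CDH1 and CD3E had no row among the counted genes. MITF and OTX2 fell with SFN (log2 fold changes -1.12 and -0.64, edgeR adjusted p = 5.27e-05 and 0.00288). BEST1 differed by 1.17 (adjusted p = 0.163), and without DMSO replicate 1 it was higher by 1.68 (adjusted p = 0.00961). It was at 107 CPM in SFN replicate 2 and at 19.4 to 33.4 CPM in the other SFN libraries. Without both DMSO replicate 1 and SFN replicate 2 it was higher by 0.999 (adjusted p = 0.00364). PMEL differed by 0.14 (adjusted p = 0.853). Of other cell types, PTPRC had 0 to 6 counts, PECAM1 0 to 9, CDH5 0 to 1, RBFOX3 0 to 1 and SYP 3 to 19.

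Of the 10 enzymes, 1 rose with SFN, HDAC9, and none was called lower. HDAC9 went from 39.7 ± 7.31 to 60.2 ± 9.28 CPM (SD, n = 5), a 1.52-fold rise (95% interval 1.19 to 1.93). This is 1 of 10 in a comparison in which 23.0% of the 13378 genes were called, 9.07% as increased and 13.9% as decreased. At an unadjusted p under 0.05 there were 2 members, HDAC9 higher and HDAC10 lower, and DESeq2 called those 2. Every gene called also passes this looser cutoff, so at least 23.0% of all genes did. The log2 fold change was above 0 for 3 members and below 0 for 7, with a median of -0.16 beside -0.028 over all genes tested. The 95% interval lay within a doubling or halving for 9 of the 10, all but HDAC10, and within 1.5-fold either way for 4. The groups overlapped for all 10 members, where 19.9% of genes had no overlap. Without DMSO replicate 1 the members called were HDAC9 (higher) and HDAC6 (lower), beside 46.1% of 13566 genes called. In that fit 5 members had an unadjusted p under 0.05, a cutoff that at least the same 46.1% of genes passed. With that library out the median of the members was 0.017 and that of all genes -0.0032. RNA from a population does not tell fewer cells expressing a gene from less RNA per cell.

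**Figure D1:**
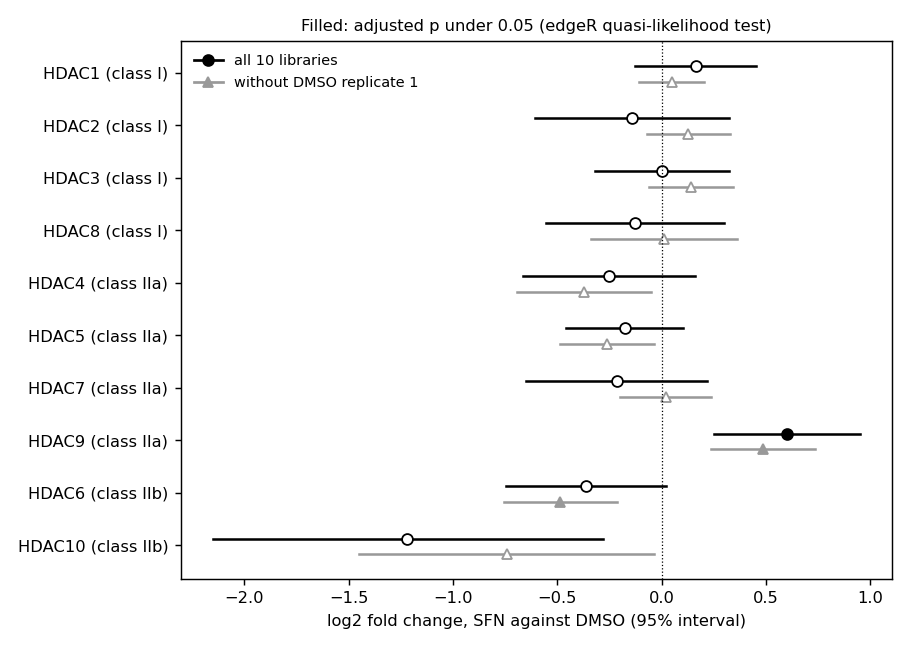
Log2 fold change of each classical HDAC mRNA, SFN against DMSO, with its 95% interval, from all 10 libraries (circles) and without DMSO replicate 1 (triangles). Filled symbols had an adjusted p under 0.05: HDAC9 in both, at 0.60 and 0.49, and HDAC6 only without that library, at -0.49.

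The order of levels depended on whether they were taken per kilobase. A QuantSeq library gives about the same number of reads for a long and a short transcript. The order by CPM, given second, is therefore the one to go by. Division by length lowers long transcripts such as those of HDAC2 (9.74 kb) and HDAC9 (9.88 kb) beside HDAC1 (2.12 kb). Per kilobase of the canonical transcript, the mean levels in DMSO were 42.6 ± 16.8 CPM per kb for HDAC2, 33.4 ± 5.99 for HDAC1 and 29.1 ± 6.32 for HDAC3 (SD, n = 5). Per kilobase the ranges of these neighbours overlapped, and HDAC2 was above HDAC1 in 2 of 5 DMSO libraries and in 3 of 5 SFN libraries. Without DMSO replicate 1 the means per kilobase were 36.0 ± 1.01 for HDAC1 and 35.2 ± 2.92 for HDAC2 (SD, n = 4). In CPM HDAC2 (309 to 705) was above HDAC1 (48.3 to 84.5) in all 10 libraries. HDAC3 lay above HDAC7 (13.6 ± 4.86) with no overlap. HDAC7, HDAC8, HDAC6, HDAC9 and HDAC5 followed, down to 3.37 ± 0.529 CPM per kb. This order held in each of the 5 DMSO libraries, although the ranges of HDAC7 and HDAC8, of HDAC6 and HDAC9 and of HDAC9 and HDAC5 overlapped across libraries. HDAC4 (0.989 ± 0.238) and HDAC10 (0.625 ± 0.421) were the lowest. In SFN the order was the same except that HDAC9 (6.09 ± 0.939) stood above HDAC6 (4.03 ± 0.697) in 5 of 5 libraries, where HDAC6 was above HDAC9 in 5 of 5 DMSO libraries. The ranges of these 2 genes overlapped in each group. The order by CPM follows. By mean CPM it was HDAC2, HDAC1, HDAC7, HDAC3, HDAC9, HDAC6, HDAC5, HDAC8, HDAC4 and HDAC10 in DMSO. HDAC7 (57.4 ± 20.5) and HDAC3 (56.3 ± 12.2) were within their spread of each other. Without DMSO replicate 1, HDAC3 (50.9 ± 2.76) came before HDAC7 (48.5 ± 4.94; SD, n = 4), the same order of these 2 as in SFN. In SFN HDAC9 (60.2 ± 9.28) came after HDAC1, followed by HDAC3 and HDAC7. In CPM HDAC9 was above HDAC6 in all 10 libraries, so those 2 exchanged places per kilobase only. Of the summed CPM of the 10 enzymes, HDAC2 held 57.7 ± 6.98% in DMSO and 55.6 ± 2.92% in SFN, and HDAC9 6.02 ± 1.94% and 9.0 ± 1.77%. The DMSO shares rest in part on DMSO replicate 1, where HDAC2 held 705 and HDAC9 27.1 of 1010 CPM. In the other DMSO libraries HDAC2 held 309 to 379 and HDAC9 40.2 to 45.4, of sums of 585 to 670 CPM.

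**Figure D2:**
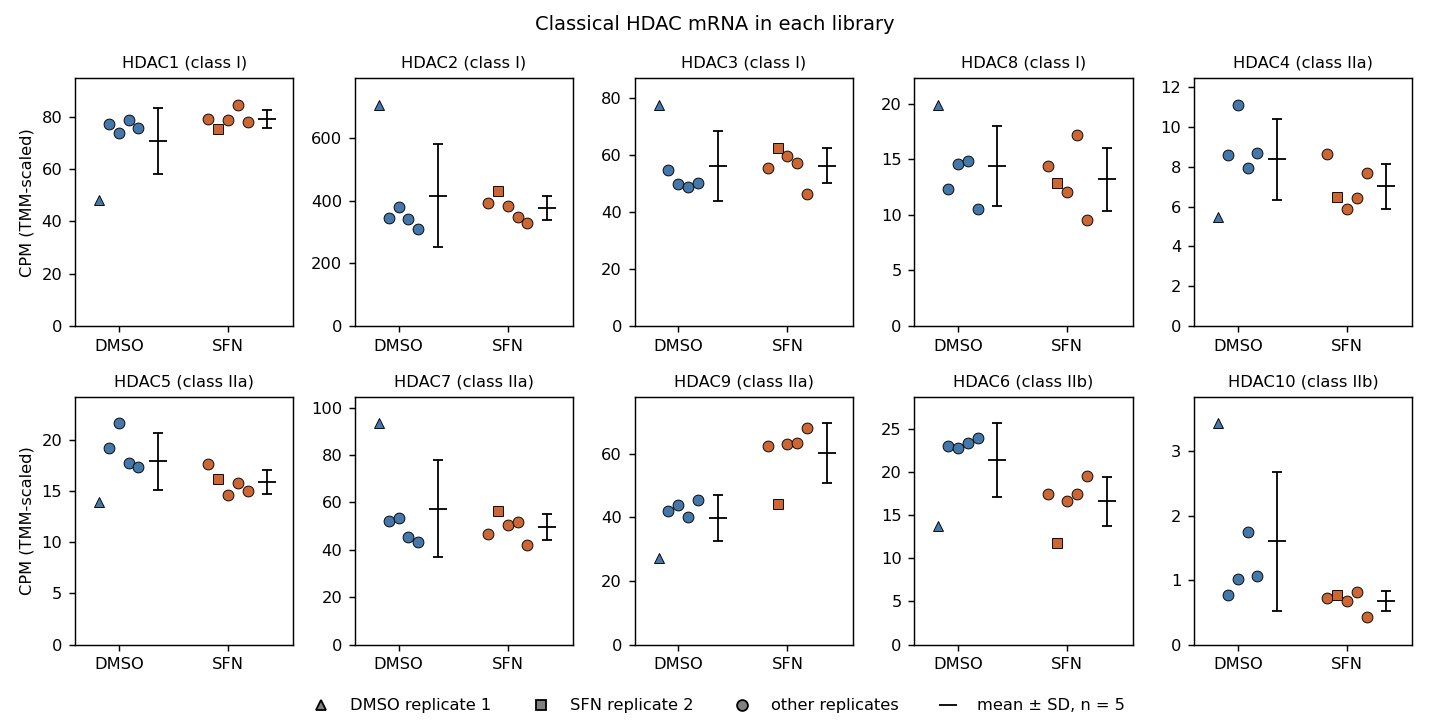
CPM of the 10 enzymes in each library, DMSO in blue and SFN in orange, with the mean and SD beside each group (n = 5). Triangles mark DMSO replicate 1 and squares SFN replicate 2. HDAC9 sits at 62.4 to 68.0 CPM in 4 of the 5 SFN libraries and at 27.1 to 45.4 CPM in DMSO.

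None of the 4 class I members was called. In the edgeR fit of all libraries none had an unadjusted p under 0.05, and neither DESeq2 nor limma-voom called any. With limma-voom quality weights, HDAC3 had an unadjusted p of 0.0474 and an adjusted p of 0.0756. HDAC1 (ENSG00000116478, GRCh38 chr1:32292083-32333635, plus strand), a catalytic subunit of the SIN3, NuRD, CoREST and MiDAC complexes, was at 48.3, 77.2, 73.7, 78.7 and 75.7 CPM in DMSO replicates 1 to 5. The SFN libraries gave 79.1, 75.3, 78.9, 84.5 and 78.0 CPM. Apart from DMSO replicate 1, the lowest of the 10, all values lay close together. HDAC1 differed by a log2 fold change of 0.16 (SE 0.13, 95% interval -0.13 to 0.45, edgeR adjusted p = 0.436), and by 0.048 without that library.

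HDAC2 (ENSG00000196591, chr6:113933028-114011308, minus strand) is the close paralogue of HDAC1 and sits in the same complexes. Its DMSO libraries held 705, 343, 379, 340 and 309 CPM. Its SFN libraries held 392, 429, 383, 347 and 330 CPM. DMSO replicate 1 was the highest of all 10, well apart from the other DMSO libraries. The log2 fold change was -0.14 (SE 0.21, 95% interval -0.61 to 0.32, edgeR adjusted p = 0.692), and it turned to 0.13 (95% interval -0.07 to 0.33) when that library was left out. An antisense RNA, HDAC2-AS2, overlaps the gene and had 6 to 24 counts, beside 4672 to 11321 of HDAC2.

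HDAC3 (ENSG00000171720, chr5:141620876-141636849, minus strand) is the deacetylase of NCoR/SMRT. It was measured at 77.7, 55.0, 49.9, 48.7 and 50.2 CPM with DMSO and at 55.7, 62.7, 59.7, 57.4 and 46.5 CPM with SFN. The means were 56.3 ± 12.2 and 56.4 ± 6.15 CPM (SD, n = 5). The difference was 0.0027 on the log2 scale (SE 0.15, 95% interval -0.32 to 0.32, edgeR adjusted p = 0.992). Its sign changed with the scaling and with the library left out, and without DMSO replicate 1 it was 0.14 (95% interval -0.06 to 0.34).

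HDAC8 (ENSG00000147099, chrX:72329516-72573101, minus strand), which works outside these complexes and deacetylates the cohesin subunit SMC3, was the least abundant of the class. The DMSO libraries read 19.9, 12.3, 14.6, 14.9 and 10.5 CPM and the SFN libraries 14.4, 12.9, 12.1, 17.2 and 9.53 CPM. The groups overlapped over most of their ranges. Its log2 fold change was -0.13 (SE 0.20, 95% interval -0.55 to 0.30, edgeR adjusted p = 0.70) and 0.012 without DMSO replicate 1.

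Among the class IIa enzymes HDAC9 was higher in SFN and the other 3 were not called. HDAC9 (ENSG00000048052, chr7:18086949-19002416, plus strand) is a MEF2-binding repressor whose gene spans 915.5 kb. In DMSO it stood at 27.1, 41.9, 43.8, 40.2 and 45.4 CPM, and in SFN at 62.4, 44.1, 63.1, 63.4 and 68.0 CPM. In 4 of the 5 SFN libraries it was above every DMSO library, and SFN replicate 2 lay among the DMSO values. The log2 fold change was 0.60 (SE 0.16, 95% interval 0.25 to 0.95, edgeR adjusted p = 0.0183). It was 0.49 (adjusted p = 0.00382) without DMSO replicate 1 and 0.58 (adjusted p = 1.65e-05) without both DMSO replicate 1 and SFN replicate 2. The call was lost without SFN replicate 4 (0.58, adjusted p = 0.0502) and with scaling by library size only (0.50, adjusted p = 0.0871). It held in 17 of 19 alternatives, in which the log2 fold change ranged from 0.49 to 0.70. GENCODE 44 lists 23 coding transcripts of HDAC9 that end at 12 places over 100 bases apart, and the gene-level counts do not tell which of them rose.

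RefSeq promoter windows ran from 250 bases before a start site to 50 after it. Of the 9 members with a window, HDAC9 was the only one with a match to the MEF2 site. That site is the sequence bound by the partners of class IIa enzymes. The match was in 1 of the 19 windows of the members. HDAC9 had several windows and its others held no match, while some members had a single window. The match is shown because HDAC9 was the member that rose. It lies in the window chr7:18086575-18086874 (GRCh38.p14, plus strand), begins 8 bases before the start site and covers chr7:18086817-18086826. That window is 75.0% G and C with 41 CpG. The 252 bases from its first base to the end of the match follow, with the match in capitals.
HDAC9 promoter, chr7:18086575-18086826: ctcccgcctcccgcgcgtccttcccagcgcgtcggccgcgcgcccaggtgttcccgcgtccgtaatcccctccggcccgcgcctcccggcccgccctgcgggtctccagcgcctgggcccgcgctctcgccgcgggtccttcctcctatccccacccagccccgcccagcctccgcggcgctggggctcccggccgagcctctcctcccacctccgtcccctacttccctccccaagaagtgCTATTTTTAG
Of 35116 such windows of all genes, 2.99% hold a MEF2 site on either strand. The counts, taken at 3′ ends, do not tell which start site was used, and a match is not a measured binding site.

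HDAC7 (ENSG00000061273, chr12:47782722-47833132, minus strand), a class IIa repressor known from endothelial and T cells, had the highest level of the class in DMSO per kilobase. It was at 93.3, 52.2, 53.2, 45.3 and 43.3 CPM in DMSO and 46.8, 56.3, 50.5, 51.9 and 41.8 CPM in SFN. Leaving aside DMSO replicate 1, the values of both groups covered nearly the same range. For HDAC7 the log2 fold change was -0.22 (SE 0.20, 95% interval -0.65 to 0.22, edgeR adjusted p = 0.497) and 0.021 without that library. SLC48A1, a heme transporter gene on the opposite strand, overlaps HDAC7 and had 95 to 164 counts beside 592 to 1498.

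HDAC5 (ENSG00000108840, chr17:44076746-44123702, minus strand), a signal-responsive repressor of MEF2 targets in muscle, gave 13.9, 19.2, 21.6, 17.7 and 17.3 CPM with DMSO. With SFN it gave 17.6, 16.2, 14.6, 15.8 and 15.0 CPM. In SFN 4 libraries lay under DMSO replicates 2 to 5, and SFN replicate 1 lay inside their range. The log2 fold change was -0.18 (SE 0.13, 95% interval -0.46 to 0.10, edgeR adjusted p = 0.369), and -0.26 (adjusted p = 0.0553) without DMSO replicate 1. G6PC3, a glucose-6-phosphatase gene on the opposite strand, overlaps HDAC5 and rose by 0.81 (SE 0.16, edgeR adjusted p = 0.0029), with 172 to 315 counts beside 188 to 421 of HDAC5. The sources used here do not say whether counting used strand, and without it reads of these 2 genes cannot be told apart where they overlap.

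HDAC4 (ENSG00000068024, chr2:239048168-239401654, minus strand), the class IIa enzyme known for its role in cartilage and muscle, had the lowest level of the class. Its values were 5.48, 8.57, 11.1, 7.95 and 8.7 CPM in DMSO and 8.64, 6.47, 5.88, 6.41 and 7.7 CPM in SFN. In SFN 4 libraries were under DMSO replicates 2 to 5, and DMSO replicate 1 was under them all. For HDAC4 the log2 fold change was -0.25 (SE 0.19, 95% interval -0.66 to 0.16, edgeR adjusted p = 0.389) and -0.37 (adjusted p = 0.0562) without DMSO replicate 1.

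In class IIb neither member was called with all libraries, and each was called under some alternatives. HDAC6 (ENSG00000094631, chrX:48801377-48824982, plus strand) removes acetyl groups from tubulin and binds ubiquitin, and is known for carrying protein aggregates to the aggresome. It was at 13.8, 23.0, 22.8, 23.4 and 23.9 CPM in DMSO and 17.5, 11.8, 16.7, 17.5 and 19.5 CPM in SFN. DMSO replicates 2 to 5 lay at 22.8 to 23.9 CPM, above all 5 SFN libraries, and DMSO replicate 1 lay below 4 of the SFN libraries. With all libraries the log2 fold change was -0.36 (SE 0.18, 95% interval -0.74 to 0.021, edgeR adjusted p = 0.168). Without DMSO replicate 1 it was -0.49 (95% interval -0.75 to -0.22, adjusted p = 0.00628), and without both that library and SFN replicate 2 it was -0.38 (adjusted p = 0.00262). HDAC6 was then the 1 member whose groups did not overlap, beside 36.2% of all genes without that library. It passed the threshold in 3 of 19 alternatives, all of which leave out or weight down single libraries.

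HDAC10 (ENSG00000100429, chr22:50245183-50251405, minus strand), which deacetylates N8-acetylspermidine, was close to the limit of detection. It had 55, 17, 18, 29 and 18 counts in the DMSO libraries and 12, 9, 9, 12 and 6 in the SFN libraries, or 1.6 ± 1.08 and 0.679 ± 0.153 CPM (SD, n = 5). All SFN counts were under all DMSO counts, but after scaling for depth DMSO replicate 2 (0.775 CPM) fell among the SFN libraries (0.424 to 0.81 CPM). HDAC10 differed by -1.22 on the log2 scale (SE 0.43, 95% interval -2.15 to -0.28, edgeR adjusted p = 0.0607). It was -0.74 (adjusted p = 0.0786) without DMSO replicate 1 and -1.4 (adjusted p = 0.0384) without DMSO replicate 2. DESeq2 called it (adjusted p = 0.0327), as did scaling by library size only (adjusted p = 0.0346). Counting error alone gives a coefficient of variation of 19.1% in DMSO and 32.3% in SFN at these counts, and the values varied by 67.4% and 22.5%.

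HDAC10 overlaps MAPK12, a p38 kinase gene on the same strand, so strand does not separate their reads. MAPK12 had 292 to 715 counts, more than HDAC10 in every library. Its log2 fold change was -0.44 (SE 0.15, edgeR adjusted p = 0.0521), and -0.36 (adjusted p = 0.0331) without DMSO replicate 1. Per 100 MAPK12 counts there were 8.35, 2.53, 2.52, 5.93 and 3.96 of HDAC10 in DMSO and 2.56, 2.79, 2.89, 3.33 and 2.05 in SFN. The part of MAPK12 reads in the HDAC10 counts was not tested.

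HDAC11, the class IV enzyme and no member here, was at 5.16 ± 0.891 CPM in DMSO and 4.43 ± 1.26 in SFN (SD, n = 5), a log2 fold change of -0.23 (SE 0.21, edgeR adjusted p = 0.492).

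DMSO replicate 1 was the highest DMSO library for HDAC2, HDAC3, HDAC8, HDAC7 and HDAC10 and the lowest for HDAC1, HDAC4, HDAC5, HDAC9 and HDAC6. It differed from the mean of the other DMSO libraries by -0.75 on the log2 scale (HDAC6) to 1.58 (HDAC10), which was more than the difference between the groups for 10 of 10 members. SFN replicate 2 was the highest SFN library for HDAC2, HDAC3 and HDAC7 and the lowest for HDAC1, HDAC9 and HDAC6. Over DMSO replicates 2 to 5 the coefficient of variation of HDAC6 was 2.2% and that of HDAC9 5.24%, and over all 5 they were 19.8% and 18.4%. What set DMSO replicate 1 apart was not tested.

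**Figure D3:**
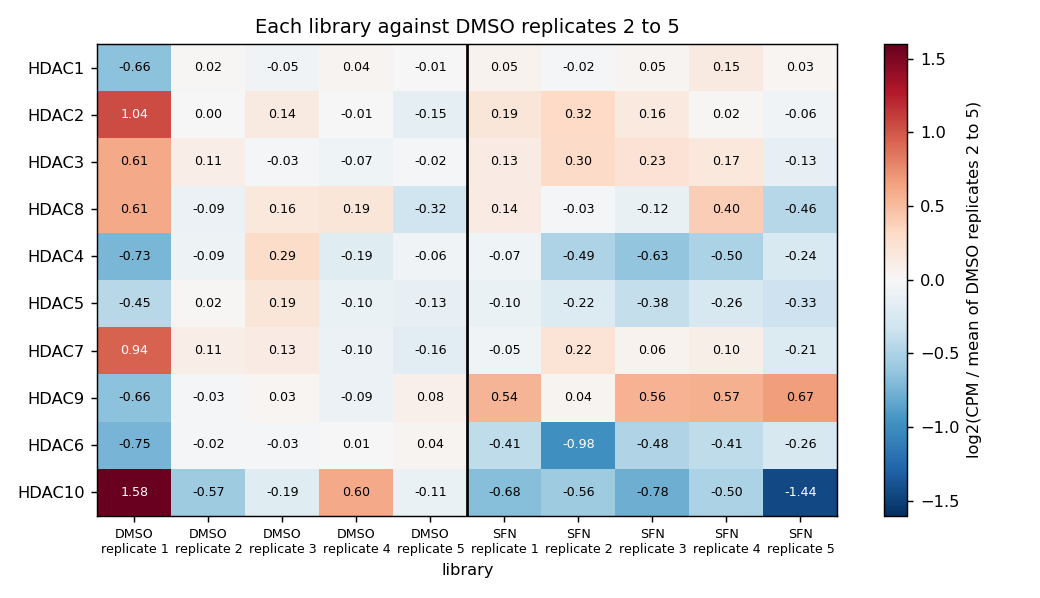
Log2 ratio of the CPM of each enzyme in each library (columns) to the mean of DMSO replicates 2 to 5. DMSO replicate 1 runs from -0.75 (HDAC6) to 1.58 (HDAC10). HDAC9 is at 0.54 to 0.67 in 4 SFN libraries and 0.04 in SFN replicate 2, and HDAC6 is below 0 in all 5.

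Genes of the complexes that hold class I enzymes changed in both directions. Of 43 genes tested of the SIN3, NuRD, CoREST, NCoR/SMRT and MiDAC complexes, 5 rose and 7 fell, with a median log2 fold change of -0.083. Without DMSO replicate 1 there were 9 and 14, beside 46.1% of all genes called. The share called, 12 of 43, stands beside 23.0% of all genes.

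MiDAC, the mitotic deacetylase complex of HDAC1 and HDAC2, had the lowest median of the 5 complexes, -1.78 over only 3 listed partners. Of these 3, 2 fell and none rose, beside 23.0% of all genes called. Without DMSO replicate 1 there were also 2 lower, beside 46.1%. MIDEAS (listed as ELMSAN1), its scaffold, was at 15.6, 31.1, 32.3, 30.1 and 29.8 CPM in DMSO and 6.91, 4.05, 8.04, 8.84 and 12.6 CPM in SFN, and every SFN library was below every DMSO library. TRERF1, a relative of MIDEAS that can take its place, was at 15.2, 32.6, 28.0, 31.8 and 33.5 CPM and then 8.46, 7.94, 7.22, 7.49 and 9.81 CPM. Again the groups did not overlap, as was so for 19.9% of all genes tested. Both fell by 1.78 on the log2 scale (SE 0.28 for MIDEAS and 0.21 for TRERF1, edgeR adjusted p = 0.000697 and 8.37e-05). Both passed in 19 of 19 alternatives, with log2 fold changes of -1.99 to -1.61 for MIDEAS and -2.01 to -1.62 for TRERF1. The remaining partner, DNTTIP1, named after its value was seen, differed by -0.54 (SE 0.27, adjusted p = 0.183) and by -0.18 without DMSO replicate 1.

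In the SIN3 complex 2 of 15 genes rose and 3 fell, beside 23.0% of all genes called. Without DMSO replicate 1 there were 5 higher and 5 lower, beside 46.1%. ING1, a reader of methylated histone H3, rose from 23.3 ± 1.53 to 33.7 ± 2.78 CPM (log2 fold change 0.53, edgeR adjusted p = 0.00264), and SAP30L, a SIN3-binding adaptor, from 27.5 ± 3.88 to 40.2 ± 1.64 CPM (0.55, adjusted p = 0.00416), each with no overlap between the groups. The relative of ING1, ING2, fell by 0.80 (adjusted p = 0.0362), the scaffold SIN3A by 0.82 (adjusted p = 0.034) and SUDS3, which joins HDAC1 to SIN3, by 0.35 (adjusted p = 0.0339) on the log2 scale. SIN3A was at 30.0 CPM in DMSO replicate 1, 81.3 to 89.3 CPM in the other DMSO libraries and 39.7 to 51.8 CPM in SFN, and ING2 at 83.9 CPM in DMSO replicate 1, 32.8 to 38 CPM in the others and 22.9 to 27.6 CPM in SFN. Without DMSO replicate 1 they fell by 1.03 and 0.45. The adjusted p without DMSO replicate 1 was 1.53e-06 for SIN3A, 0.00123 for ING2 and 0.0125 for SUDS3. The call of SUDS3 was lost without DMSO replicate 2 or 4 or SFN replicate 1, 2, 3 or 4 (adjusted p 0.0667 to 0.0898), that of SIN3A without any single library but DMSO replicate 1 and SFN replicate 5 (0.0724 to 0.0796, with log2 fold changes of -0.81 to -0.75), and that of ING2 without any single SFN library (0.0614 to 0.0759).

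In CoREST 2 of 8 genes fell and none rose, beside 23.0% of all genes called, and without DMSO replicate 1 there were 5 lower, beside 46.1%. ZMYM3, a zinc finger subunit, went from 18.8 ± 3.41 to 10.1 ± 1.06 CPM (log2 fold change -0.91, edgeR adjusted p = 0.000941) and the corepressor RCOR3 from 28.2 ± 3.49 to 17.2 ± 2.72 CPM (-0.72, adjusted p = 0.00308), with no overlap for either. In NuRD 2 of 11 rose, beside the same 23.0%, and without DMSO replicate 1 there were 3 higher and 1 lower, beside 46.1%. CDK2AP1 went from 67.6 ± 2.28 to 87.6 ± 6.51 CPM (0.37, adjusted p = 0.0106), a call lost with library size only (adjusted p = 0.0556) and with no low-count filter (adjusted p = 0.0727). The helicase CHD5 had 1 to 10 counts in DMSO and 10 to 25 in SFN (2.23, SE 0.49, adjusted p = 0.00629). In NCoR/SMRT 1 of 6 rose, again beside 23.0%, with 1 higher and 1 lower (beside 46.1%) when DMSO replicate 1 was left out. The gene that rose with all libraries was GPS2, from 5.4 ± 1.61 to 9.0 ± 2.07 CPM (0.74, adjusted p = 0.0427). The GPS2 call was lost without DMSO replicate 2 or 3 or SFN replicate 1, 2, 4 or 5 (adjusted p 0.0745 to 0.0994). It was also lost with library size only (adjusted p = 0.102) and with no low-count filter (adjusted p = 0.0507).

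Around the class IIa enzymes, 3 of 21 tested MEF2 factors, 14-3-3 proteins, kinases and ankyrin-repeat partners rose and 1 fell, with a median log2 fold change of 0.055. Without DMSO replicate 1 there were 6 and 5. The 4 of 21 called stand beside 23.0% of all genes, and the 11 without that library beside 46.1%. The kinase gene PRKD2, a protein kinase D that exports class IIa enzymes from the nucleus, was at 10.3, 16.4, 17.1, 17.2 and 14 CPM in DMSO and 23.8, 23.2, 25.3, 22.3 and 23.3 CPM in SFN. All 5 SFN libraries lay above all DMSO libraries, and PRKD2 rose by 0.65 (SE 0.14, edgeR adjusted p = 0.00643). SIK1, a salt-inducible kinase that phosphorylates the same enzymes, fell from 15 to 21 counts in DMSO to 4 to 10 in SFN (log2 fold change -1.14, SE 0.29, adjusted p = 0.0146), a call lost with no low-count filter (adjusted p = 0.0713). ANKRA2, an ankyrin-repeat protein that binds HDAC4 and HDAC5, rose by 0.62 (adjusted p = 0.0339) and the transcription factor MEF2D by 0.47 (adjusted p = 0.0469), both with overlapping groups. Leaving out DMSO replicate 2 or 4 or SFN replicate 1, 3, 4 or 5 ended either call, as did DMSO replicate 3 for ANKRA2 and DMSO replicate 5 for MEF2D (adjusted p 0.0553 to 0.0856 for ANKRA2 and 0.0549 to 0.124 for MEF2D). MEF2D was also not called with library size only (adjusted p = 0.16) or with no low-count filter (adjusted p = 0.09). MEF2B (0 to 3 counts) and the 14-3-3 gene stratifin (0 to 4 counts) were too low to be tested.

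**Figure D4:**
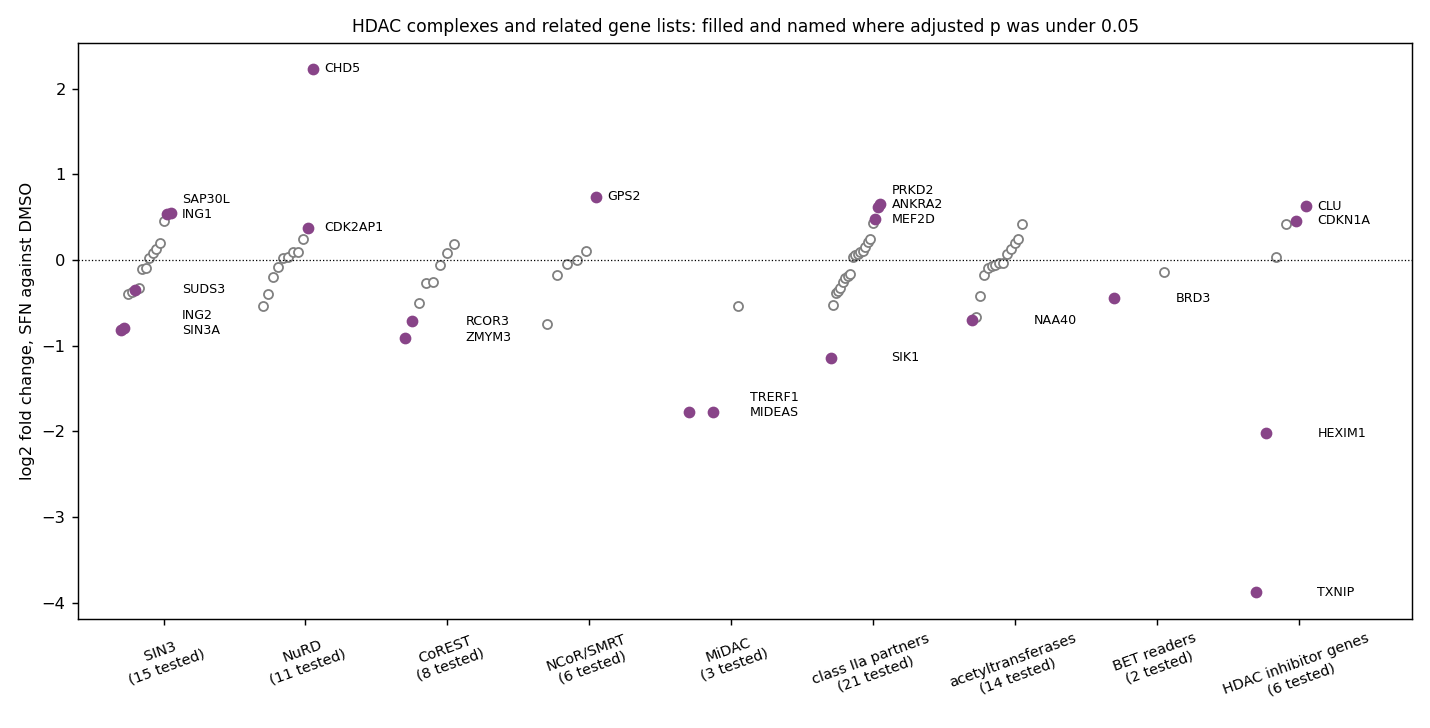
Log2 fold change, SFN against DMSO, of each tested gene of the HDAC complexes and related lists. Filled, named points had an adjusted p under 0.05 in edgeR's quasi-likelihood test. In MiDAC, MIDEAS and TRERF1 both lie at -1.78, and among genes that HDAC inhibitors raise the points run from -3.88 (TXNIP) to 0.63 (CLU).

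Genes whose products add acetyl groups to proteins, or read them, were also followed. Of 14 acetyltransferase genes 1 fell, beside 23.0% of all genes called, and without DMSO replicate 1 there were 1 higher and 3 lower, beside 46.1%. The 1 that fell with all libraries was NAA40, which acetylates the amino end of histones H2A and H4, from 31.4 ± 5.47 to 19.2 ± 2.19 CPM (log2 fold change -0.71, edgeR adjusted p = 0.00413). EP300 (0.20, adjusted p = 0.617) and CREBBP (0.42, adjusted p = 0.222), the paralogous coactivators named after their values were seen, were not called. Of the bromodomain readers BRD2 and BRD3, BRD3 fell by 0.44 (adjusted p = 0.0376), a call that was lost without DMSO replicate 2 or 4 or SFN replicate 1, 2, 3 or 4 (adjusted p 0.0621 to 0.0833).

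Genes that rise in many cell types given HDAC inhibitors did not move one way. Of 6 tested, 2 rose and 2 fell, beside 23.0% of all genes called. Without DMSO replicate 1 there were 3 and 2, beside 46.1%. CDKN1A, the cell cycle inhibitor p21, was at 34.6 to 47.4 CPM in DMSO and 45.3 to 65.7 CPM in SFN (log2 fold change 0.46, SE 0.13, edgeR adjusted p = 0.0208). Its call was lost without DMSO replicate 2 or 4 or SFN replicate 1 (adjusted p 0.0502 to 0.0605). Library size only and no low-count filter also ended it, and it held in 13 of 19 alternatives. CLU, the chaperone clusterin, rose by 0.63 (SE 0.12, adjusted p = 0.00341) with no overlap. HEXIM1, which holds P-TEFb inactive, went the other way and was at 78.7, 74.8, 82.3, 74.6 and 72.6 CPM in DMSO and 18.4, 17.8, 18.4, 21.1 and 18.6 CPM in SFN. It fell by 2.02 (SE 0.096, adjusted p = 1.84e-07). TXNIP, the thioredoxin-interacting protein, was at 8.36 ± 1.78 CPM in DMSO and 0.555 ± 0.191 in SFN, with 4 to 12 counts in the SFN libraries (log2 fold change -3.88, SE 0.26, adjusted p = 1.87e-06). GADD45B (0.030, adjusted p = 0.963) and H2BC21 (0.42, adjusted p = 0.351), the other 2 tested, were not called, although GADD45B was higher by 0.52 (adjusted p = 0.00718) without DMSO replicate 1. DHRS2 (1 to 22 counts) was not tested. HEXIM1, TXNIP and CLU passed in 19 of 19 alternatives.

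Response elements of stress and starvation pathways were searched in the 19 RefSeq promoter windows of the members, on both strands. The antioxidant response element core, TGACNNNGC, to which NRF2 binds, was in 3 of them, 2 of HDAC4 and 1 of HDAC6, and in 13.3% of the 35116 windows of all genes. The C/EBP-ATF response element, TGATGNAA, was in none, beside 3.62% of all windows. The cyclic AMP response element, TGACGTCA, was also in none, beside 1.85%, as was the heat shock element, GAANNTTCNNGAA, beside 0.49%. HDAC5 had no window in the table.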

How the data were processed

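RPE-1 cells (5 DMSO and 5 SFN libraries, 4 h) were grouped by their treatment labels. The authors deposited raw counts per Ensembl gene from QuantSeq libraries, not normalized. Per the labels' processing notes, FastQC, STAR, featureCounts and edgeR were used on hg38/GRCh38, with no roles or versions. The use of strand and of molecular identifiers is not given in the sources used here. Counts of replicates differed by more than sampling noise (chi-square over its degrees of freedom, 3.5 to 243). Depth per library is given in the report, and intervals cover the fitted spread between libraries.

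The analysis used edgeR 4.0.16 in R 4.3.3: filterByExpr, TMM, glmQLFit and glmQLFTest on group, fitted over all 13378 genes with Benjamini-Hochberg adjustment. Alternatives used limma 3.58.1 and DESeq2 1.42.0. The study's dream model with repeated measures was not run, since the sources used here do not define them. The fit was tested on simulated data in which no library stood apart across genes, so that test does not cover the effect of DMSO replicate 1. GENCODE 44 held 28145 of 28380 identifiers and gave positions and lengths, and RefSeq the promoters (GRCh38.p14). MIDEAS was matched by identifier under an older symbol. The members and gene lists were chosen with earlier results of these data known. Values are given for all members, HDAC11 and CDKN1A, and for up to 6 called genes of each other list in order of p. Some listed genes are not reported here.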

Additional observations from a re-analysis of the deposited data

Results flagged for a closer look

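Several groups had 1 library far from the rest, in that its gap to the nearest library, divided by the range of the group, was above Dixon's critical value for 5 samples. This held for 14 of 66 groups over 33 genes, and in 10 of the 14 the library was DMSO replicate 1. Independent groups would give about 3.3 by chance. These groups all come from the same 10 libraries, so 14 against 3.3 is not a test. Among the enzymes DMSO replicate 1 was far below the other DMSO libraries for HDAC1 (ratio 0.836), HDAC9 (0.718) and HDAC6 (0.885), and far above them for HDAC2 (0.825), HDAC3 (0.784) and HDAC7 (0.802). Among the partners it was low for SIN3A (0.865) and MIDEAS (0.851) and high for ING2 (0.898) and BRD3 (0.764). SFN replicate 2 was low for HDAC9 (0.766) and SAP30L (0.798). SFN replicate 5 was high for SIN3A (0.88) and SFN replicate 4 for HEXIM1 (0.756).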

How the results depend on the processing

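HDAC9 kept its direction in all 19 alternatives run, as did HDAC1, HDAC4, HDAC5, HDAC6 and HDAC10 in those that tested them, while HDAC2, HDAC3, HDAC8 and HDAC7 changed sign in some. With library size only, limma-voom on quantile normalized values and no low-count filter, HDAC3 was at -0.066, -0.0094 and -0.0040. Leaving out 1 library gave -0.23 to 0.13 for HDAC2, -0.047 to 0.14 for HDAC3, -0.24 to 0.012 for HDAC8 and -0.30 to 0.021 for HDAC7. Chosen after seeing the data were 2 alternatives. With both DMSO replicate 1 and SFN replicate 2 left out HDAC2 was at 0.082 and HDAC8 at 0.028, and with limma-voom quality weights HDAC2 was at 0.14, HDAC8 at 0.11 and HDAC7 at 0.038.

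The number of members called higher, 1, was 0 with library size only and 0 to 1 with 1 library left out. The number called lower, 0, was 1 with DESeq2 and library size only (HDAC10), 1 with both libraries left out and with quality weights (HDAC6), and 0 to 1 with 1 library left out. All genes called, 3076, became 6379 with both libraries left out, 7915 with quality weights and 2383 to 6251 with 1 left out, the last without DMSO replicate 1. Of the called genes 39.5% were increased, beside 27.5% with library size only, which moved the median of all genes from -0.028 to -0.11. Genes of the complexes, class IIa partners, acetyltransferases and bromodomain readers numbered 8 higher and 10 lower. They were 5 higher with no filter, 5 higher and 6 lower with the replicate block, 17 and 24 with both libraries left out, 20 and 31 with quality weights, and 5 to 16 higher and 6 to 23 lower with 1 left out. The causes were not tested.

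Same-numbered libraries correlated at -0.267 to 0.484 in their deviations from the group mean, with 1 of 5 pairs over 0.1. Of the SFN libraries, 1 of 5 was closest to its own number. DMSO replicate 1 shifts the mean of its group, and it correlated at 0.483 with SFN replicate 2 and -0.623 with SFN replicate 5. These values therefore cannot tell whether the replicate numbers pair the samples. With the replicate block 2441 genes were called, and HDAC9 was still called. The block ended the calls of SUDS3, SIN3A, CDK2AP1, GPS2, SIK1, MEF2D, BRD3 and CDKN1A (adjusted p 0.0539 to 0.0935). Library size only ended those of HDAC9, CDK2AP1, GPS2, MEF2D and CDKN1A. Use of no low-count filter ended those of SUDS3, CDK2AP1, GPS2, SIK1, MEF2D, BRD3 and CDKN1A. With limma-voom on quantile normalized values SIN3A and ING2 were not called. The stricter filter removed HDAC10, CHD5 and SIK1. Depth limits HDAC10, CHD5, SIK1 and TXNIP, each with fewer than 20 counts in some libraries.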
